A study of Homo sapiens with 9 samples.

Results

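The ionotropic glutamate receptor subunits described here are 10 genes: the kainate receptor subunits GRIK1, GRIK2, GRIK3, GRIK4 and GRIK5, the AMPA receptor subunits GRIA1, GRIA2 and GRIA3, and the NMDA receptor subunits GRIN1 and GRIN2D. They were chosen by name, with the results of these arrays already known, among them the low GRIK3 signal in the knock-down cells, so their values are given as a description and no p-value is attached to them. All 10 genes were on the array, with 18 probes. Of these 18 probes, 9 probes of 6 genes were bright enough to be tested, meaning that they were well above background on all 3 arrays of at least 1 group, and 4 genes (GRIK1, GRIA1, GRIA2 and GRIN1) had no such probe. In all, 26862 genes were tested. Of these, 16082 had a gene symbol and 10780 were array identifiers without one, each counted as a gene in the shares of all genes given below. Identifiers without a symbol were called changed against the control less often than named genes, which lowers those shares. The 9 samples were stable lines of HEK293, a human embryonic kidney cell line with some neuronal transcripts. KD3 carried shRNA 3 and KD4 carried shRNA 4, both directed against SMCHD1, a chromatin protein of the SMC family, and CTL carried the control shRNA NC5, with 3 arrays in each group and no other treatment. Each shRNA was delivered by retrovirus and the cells were selected with puromycin, so each line was a selected population and every group, CTL included, carried the vector and had been through selection. The methods call the 3 samples of a group biological triplicates, but whether they came from separate infections is not stated. The errors therefore measure the spread between these samples, which may be technical.

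Ionotropic glutamate receptors are cation channels, assembled from several subunits, that open when glutamate binds. AMPA receptors carry most fast excitatory transmission between neurons, NMDA receptors admit calcium and need GRIN1 in every assembly, and kainate receptors act on both sides of the synapse. Among the kainate subunits, GRIK1, GRIK2 and GRIK3 can form channels alone, while GRIK4 and GRIK5 need 1 of these partners to reach the cell surface. These genes are known mainly from neurons, and kidney epithelium is not where they are usually studied.

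The shRNA constructs define the groups and are shown 5' to 3' with the hairpin loop in capitals. Each was 68 bases long with the same 9-base loop at positions 30 to 38, counted from the first base.
KD3 (shRNA 3): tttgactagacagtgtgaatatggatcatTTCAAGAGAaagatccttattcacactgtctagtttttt
KD4 (shRNA 4): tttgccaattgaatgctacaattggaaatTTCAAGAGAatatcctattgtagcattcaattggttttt
CTL (NC5): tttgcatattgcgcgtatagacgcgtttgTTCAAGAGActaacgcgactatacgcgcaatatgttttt

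The upstream DNA of 3 of the tested subunits is shown because GRIK3 and GRIN2D were both lower in the knock-down cells, to very different extents, while GRIK5 was not lower. Each run is the 250 bases before the RefSeq transcription start on the coding strand (GRCh38.p14), with every CG dinucleotide, the site of DNA methylation in mammals, in capitals. The coordinates are chr1:37034516-37034765 on the minus strand for GRIK3, chr19:48393418-48393667 on the plus strand for GRIN2D and chr19:42070207-42070456 on the minus strand for GRIK5.
GRIK3: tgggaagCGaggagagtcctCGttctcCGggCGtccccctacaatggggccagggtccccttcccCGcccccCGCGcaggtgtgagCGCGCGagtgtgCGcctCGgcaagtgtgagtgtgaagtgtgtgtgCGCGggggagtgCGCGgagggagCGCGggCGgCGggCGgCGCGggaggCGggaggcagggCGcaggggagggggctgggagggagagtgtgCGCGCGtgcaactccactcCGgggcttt
GRIN2D: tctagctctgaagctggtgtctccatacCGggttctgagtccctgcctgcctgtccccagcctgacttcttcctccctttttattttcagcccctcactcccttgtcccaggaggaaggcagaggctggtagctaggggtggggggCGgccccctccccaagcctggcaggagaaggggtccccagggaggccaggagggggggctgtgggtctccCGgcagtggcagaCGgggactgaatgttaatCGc
GRIK5: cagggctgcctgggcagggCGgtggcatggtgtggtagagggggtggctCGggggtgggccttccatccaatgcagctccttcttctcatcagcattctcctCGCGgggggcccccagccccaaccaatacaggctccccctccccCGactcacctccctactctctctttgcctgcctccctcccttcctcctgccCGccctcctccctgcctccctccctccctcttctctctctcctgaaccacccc

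The GRIK3 window held 29 CG dinucleotides and was 73.6% G or C, and 14.1% of 35114 RefSeq promoter windows of this length held at least as many CG dinucleotides. The GRIN2D window held 5 and the GRIK5 window 6, levels reached by 65.7% and 61.9% of windows. Among the other subunits with an entry, a GRIK4 start held 44, a GRIA2 start 43 and a GRIK2 start 25, so a CG-rich start was not limited to GRIK3. RefSeq entries were matched for 7 of the 10 genes, with 12 starts; GRIK1, GRIA3 and GRIN1 had no entry in the table used. On both strands, GGGCGG, the core of the GC box bound by SP-family factors, occurred 3 times for GRIK3, 1 time for GRIN2D and 2 times for GRIK5, and in 6 of the 12 windows against 42.6% of all windows. CCAAT occurred in 4 of the 12 windows, 2 times in that of GRIK5, against 32.0% of all windows. TATAAA occurred in 0 of the 12 windows against 10.7%. TTCAGCACC, the left arm of the RE1 element that the neuronal gene repressor REST binds, occurred in 1 window, at a GRIA2 start, against 0.288% of all windows. These matches describe letters in the windows; no methylation or factor binding was measured here.

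Across the 9 arrays the median processed signal was 82.19 to 117.6 and 75.13% to 79.76% of probes were well above background. Probe signals are given below as log2 of the processed signal after quantile normalization. A probe was called changed when its adjusted p in limma was under 0.05 and its fold was at least 1.8. The standard errors (SE) of log2 fold changes are those of limma. They pool the spread of the 3 groups and draw it toward that of all tested probes, so they are not the spread of the compared arrays alone. The brightest SMCHD1 probe had a log2 fold change of -0.97 ± 0.09 (SE) in KD3 and -1.53 ± 0.09 in KD4 (limma, Benjamini-Hochberg adjusted p = 0.000214 and 1.81e-05), lower in 3 of 3 arrays of each. Of 9 genes expected in HEK293, such as VIM, KRT8 and NEFM, all were well above background on every array. So were 6 of 8 neuron markers, 5 of 6 glial markers and 3 of 4 blood markers, so passing this detection limit alone says little about a cell type. SLC17A6 and GAD2, transmitter genes of neurons, and HBB were above it on no array.

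The kainate subunits gave the clearest difference between groups, and it was on a probe of GRIK3. On probe A_24_P870799 the GRIK3 signal was 8.17, 8.56 and 8.42 in CTL, 4.58, 4.42 and 4.51 in KD3, and 5.59, 5.44 and 5.74 in KD4. The 3 groups were fully separated, with every CTL array above every KD4 array and every KD4 array above every KD3 array, and all 9 arrays were well above background. On this probe the KD3 difference from CTL was a log2 value of -3.88 ± 0.12 (SE, n = 3 and 3), which left 6.80% of the CTL signal. The KD4 difference was -2.79 ± 0.12, which left 14.4%. In bulk samples, fewer cells that express a gene and less RNA per cell cannot be told apart. Among 32276 tested probes this fall ranked 1 in KD3, the steepest of all, and 14 in KD4. GRIK3 was chosen with its low signal on these arrays known, so the rank only describes the fall and tests nothing. Leaving out each array in turn moved the KD3 value only between -3.99 and -3.79. Within each of the 2 slides on which the arrays lay, KD3 was at -3.62 and -4.07, and KD4 was at -2.57 and -2.90. Slide 1 held a single CTL array (replicate 1) and a single KD4 array (replicate 1), and slide 2 a single KD3 array (replicate 2). Both KD3 values and the slide 1 KD4 value therefore rest in part on single arrays. With a background correction that adds an offset (normexp), the values were -2.26 in KD3 and -1.84 in KD4, and both calls were kept.

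Some summed signals of marker genes of other cell types were also lower in the knock-downs. A sum follows its brightest genes, so it does not show that each marker fell. Of the neuron markers, GAD1 and SLC17A7 were called in neither knock-down. The summed linear signal of the 8 neuron markers was 1953 to 2015 in CTL and 1580 to 1710 in KD3, without overlap, and 1818 to 1991 in KD4, which overlapped CTL. The sum of the 6 glial markers was 1916 to 2005 in CTL, 1502 to 1595 in KD3 and 1476 to 1605 in KD4, lower in both knock-downs. The 4 blood markers summed to 226.8 to 278.9, 232.9 to 244.8 and 256.4 to 302.1, and the 9 genes expected in HEK293 to 152400 to 164600, 144100 to 160100 and 166600 to 170600. The part of these shifts in the GRIK3 and GRIN2D results was not tested.

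The other GRIK3 probes moved far less. Probe A_23_P149084 read 6.76, 5.96 and 6.29 in CTL, 5.76, 5.80 and 5.94 in KD3, and 6.08, 6.33 and 6.13 in KD4. KD3 lay just below CTL with no overlap, at -0.50 ± 0.18, and KD4 overlapped CTL, at -0.16 ± 0.18, and neither difference was called. Probe A_33_P3246553 was dim, at 4.40, 4.77 and 4.08 in CTL, 3.10, 3.96 and 3.40 in KD3, and 3.42, 3.69 and 4.15 in KD4, and it was well above background on 3, 2 and 2 arrays of these groups. It passed the detection filter through CTL alone, where it was highest, which favours a lower value in the knock-downs. Its log2 fold change was -0.93 ± 0.27 in KD3, which met the call thresholds, and -0.66 ± 0.27 in KD4, which did not. The KD3 call was lost in 10 of the alternatives run: without KD3 replicate 1 (-0.74), KD3 replicate 3 (-0.89), CTL replicate 1 (-0.94) or CTL replicate 2 (-0.75), with normexp (-0.21), slide as a block (-0.79) or scaling to the 75th percentile (-1.001), and with no dim-probe filter, the methods' t-test after adjustment or a fit of KD3 and CTL alone.

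**Figure D1:**
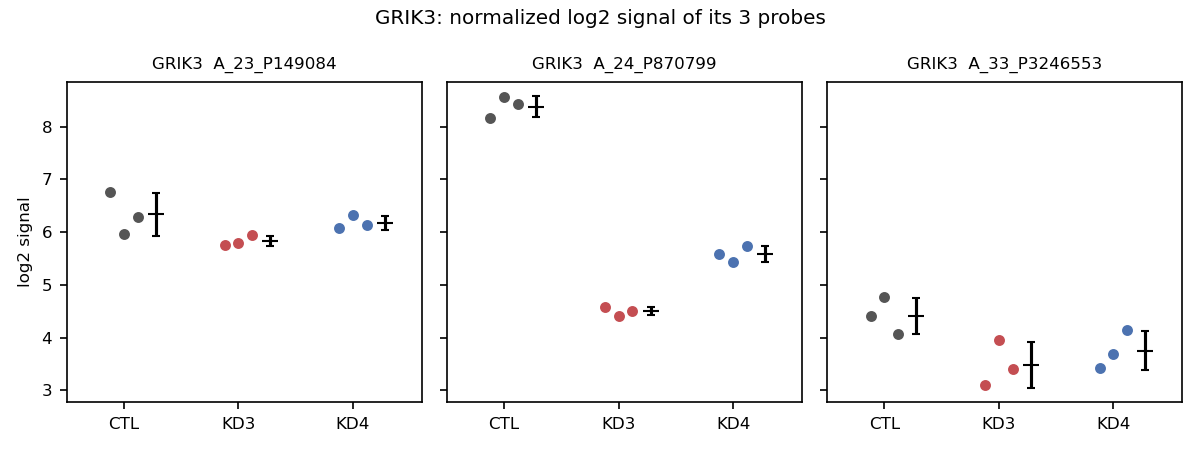
GRIK3 log2 signal (y axis) on each of its 3 probes in CTL, KD3 and KD4; dots are single arrays and the black bars are the mean and SD of 3 arrays. On A_24_P870799 the CTL arrays sit at 8.17 to 8.56 and the knock-down arrays at 4.42 to 5.74, while on the other probes the groups lie close together or overlap.

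The widest gap in log2 fold change between the GRIK3 probes reached 3.38 (KD3) and 2.64 (KD4). Over 3938 genes with more than 1 tested probe, the median gap was 0.15 in KD3 and 0.19 in KD4, and 3 genes in KD3 and 7 in KD4 had a gap at least as wide, GRIK3 included. A gap grows with the number of probes, and GRIK3 has 3. Over the 648 genes with 3 or more tested probes, the median gap was 0.27 in KD3 and 0.32 in KD4. In each comparison 1 of these genes, GRIK3 itself, had a gap that wide. The place of each probe along the GRIK3 transcript is not given in the sources used here, so which transcript forms each one reads was not examined. When the 3 probes were averaged, a choice made after seeing these values, GRIK3 was at -1.77 ± 0.10 in KD3 and -1.20 ± 0.10 in KD4 and was called lower in both.

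The knock-downs also differed from each other on A_24_P870799, where KD4 was higher than KD3 by 1.09 ± 0.12 with no overlap. GRIK3 was the only 1 of the 6 tested subunit genes called between the knock-downs, where 0.220% of all genes were called higher in KD4 than in KD3. This call was not kept with normexp, with the methods' t-test after adjustment, or with the mean over the probes, where the difference was 0.57. The order is the reverse of that for SMCHD1, whose brightest probe was lower in KD4 than in KD3, at -0.56 ± 0.09 (limma adjusted p = 0.0195), a difference short of 1.8-fold. Since both comparisons use the same CTL arrays, the KD3 and KD4 values are not independent of each other.

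Gene profiles were compared with that of the steep GRIK3 probe by root mean square difference of log2 signal from the CTL mean. Among probes well above background on all 9 arrays, the most alike were those of STRA6, VAT1L and IGFBP7. Probes that were dim on any array were left out of this comparison. STRA6, a membrane receptor for retinol uptake, was at -3.21 in KD3 and -2.53 in KD4, with a root mean square difference of 0.451 and r = 0.990. VAT1L was at -3.09 and -2.34 with 0.645 and r = 0.962. IGFBP7, a secreted protein that binds insulin-like growth factors, was at -2.92 and -2.13 with 0.705 and r = 0.986. The 9 points of each profile share the same arrays and the same split into groups.

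GRIK2, whose product forms the most studied kainate channels, had 4 probes, of which 2 were tested. Its brighter probe A_33_P3307147 read 5.62, 5.13 and 5.34 in CTL, 5.47, 4.70 and 5.16 in KD3, and 5.61, 4.99 and 5.55 in KD4. The groups overlapped, with differences of -0.25 ± 0.23 in KD3 and 0.02 ± 0.23 in KD4. The dimmer probe A_33_P3307133 spread over 3.44 to 4.78 across the 9 arrays, overlapped in every comparison, and differed by -0.03 ± 0.34 in KD3 and 0.16 ± 0.34 in KD4. The remaining GRIK2 probes were well above background on 0 arrays and on 1 CTL array. Unlike GRIK3, GRIK2 therefore gave no separation of the knock-down arrays from CTL on any tested probe, though the errors leave room for changes of moderate size.

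GRIK4 and GRIK5 encode the subunits that need a GRIK1, GRIK2 or GRIK3 partner. GRIK4 on A_33_P3280074 read 5.23, 4.67 and 4.93 in CTL, 4.89, 4.55 and 3.46 in KD3, and 4.73, 4.81 and 5.37 in KD4. The KD3 difference of -0.65 ± 0.35 rested on KD3 replicate 3, since it was -0.23 without that array, and the groups overlapped. The KD4 difference was 0.03 ± 0.35. The other GRIK4 probe was well above background on no array. GRIK5 on A_23_P16063 read 5.89, 6.24 and 6.07 in CTL, 5.92, 6.43 and 6.36 in KD3, and 6.05, 6.30 and 6.54 in KD4. Its groups overlapped, with differences of 0.17 ± 0.17 and 0.23 ± 0.17, so GRIK5 was the only tested subunit gene whose every probe had a positive difference in both knock-downs. GRIK1 was well above background on 0 of 9 arrays.

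Of GRIA1, GRIA2 and GRIA3, only the X-linked GRIA3 could be tested. Its probe A_24_P143127 read 5.58, 4.44 and 4.49 in CTL, 4.61, 4.51 and 4.72 in KD3, and 5.50, 4.67 and 5.08 in KD4. The groups overlapped, with differences of -0.22 ± 0.31 in KD3 and 0.25 ± 0.31 in KD4, and 1 CTL array stood well above the others. The KD3 difference was 0.15 without CTL replicate 1, so its sign rested on that array. GRIA1 was well above background on 1 of 9 arrays, KD4 replicate 2. GRIA2, the subunit that sets the calcium permeability of AMPA receptors, had 2 probes, 1 of them above background on no array and the other only on KD4 replicate 1, at 4.50. With signals below the detection limit, no fold change is given for GRIK1, GRIA1, GRIA2 or GRIN1.

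The NMDA subunits gave the second difference with separated groups. GRIN2D, a regulatory NMDA subunit known from early development, read 6.89, 6.92 and 6.79 on A_33_P3402868 in CTL, 6.53, 6.34 and 6.51 in KD3, and 6.26, 6.19 and 6.21 in KD4. Every KD4 array lay below every KD3 array, and every KD3 array below every CTL array. The differences from CTL were -0.41 ± 0.07 in KD3 and -0.65 ± 0.07 in KD4, which left 75.3% and 63.8% of the CTL signal. Neither reached 1.8-fold, so GRIN2D was not called. KD4 against KD3 was at -0.24 ± 0.07, the opposite order to that of GRIK3. Without an array, the KD3 difference lay between -0.45 and -0.35, and with normexp it was -0.23 in KD3 and -0.41 in KD4. GRIN1, the obligatory NMDA subunit, was well above background on none of the 9 arrays with either of its 2 probes, so the GRIN2D signal was measured without a detectable GRIN1 signal on this array.

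**Figure D2:**
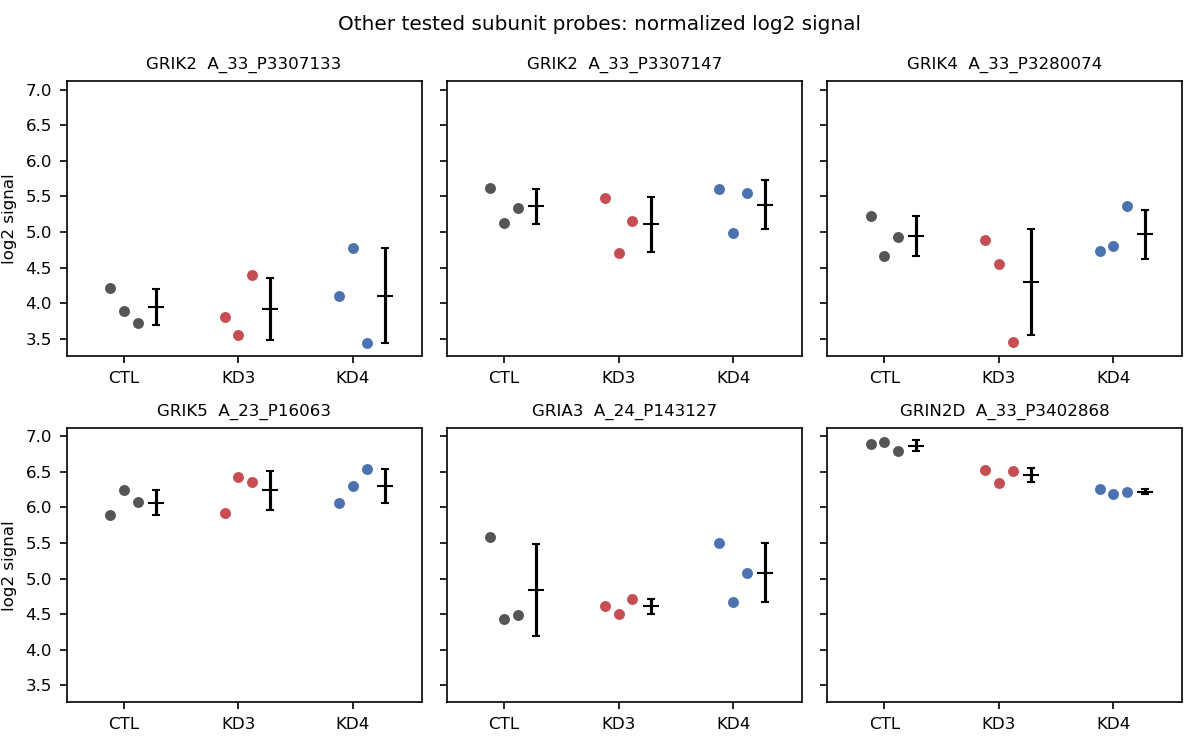
Log2 signal (y axis) of the 6 other tested subunit probes in CTL, KD3 and KD4; dots are single arrays and the black bars are the mean and SD of 3 arrays. The GRIN2D arrays fall into separate groups, from 6.79 to 6.92 in CTL down to 6.19 to 6.26 in KD4, and the groups of the GRIK2, GRIK4, GRIK5 and GRIA3 probes overlap.

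**Figure D3:**
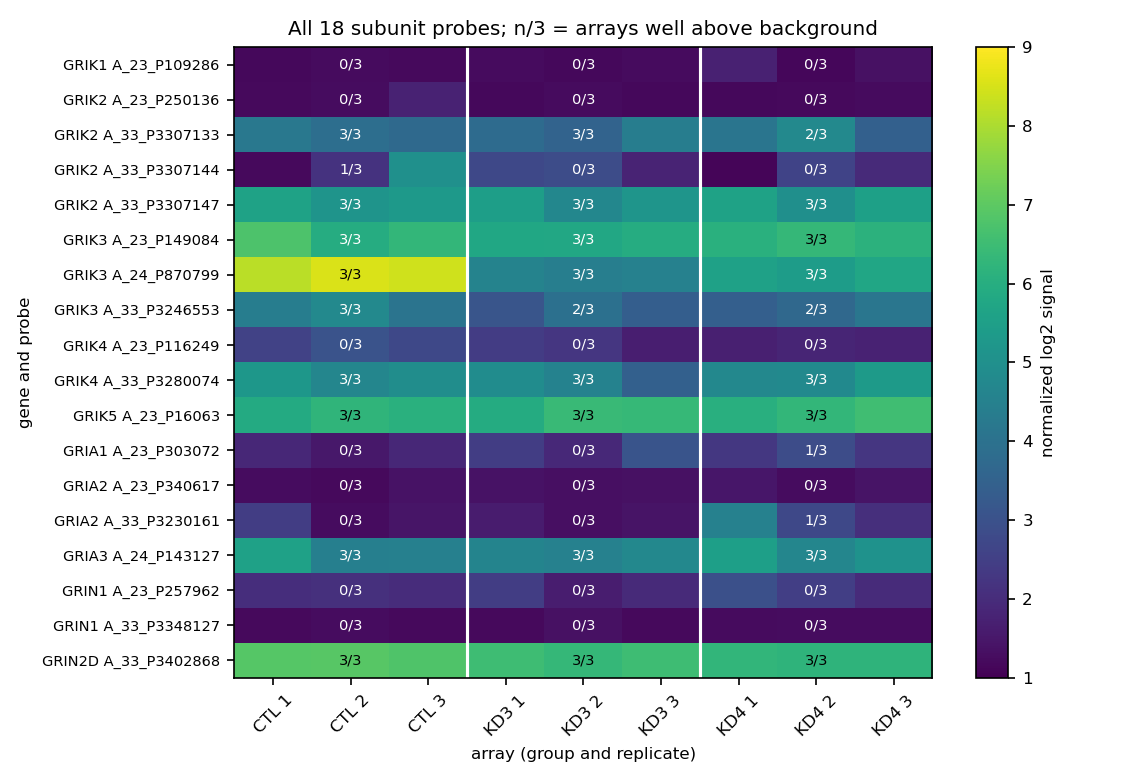
Normalized log2 signal (colour) of all 18 subunit probes (rows) on the 9 arrays (columns), with the number of arrays of each group that were well above background written as n/3. Both GRIN1 probes, the GRIK1 probe and 1 GRIA2 probe are dark throughout, and the steep GRIK3 probe is the one whose colour changes between CTL and both knock-downs.

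Counted over the subunits, 1 of 6 tested genes was called lower in KD3 and 0 higher, where 2.43% of all genes tested were called lower. In KD4 1 of 6 was called lower and 0 higher, where 3.53% of all genes were lower, and GRIK3 was the 1 gene called lower in both, as were 1.83% of all genes. With 6 genes, 1 of which drew attention because of its fall, nothing can be read from these shares about the family. Arrays did not overlap between KD3 and CTL on 4 of the 9 probes, 3 of GRIK3, the dim one included, and 1 of GRIN2D, against 36.0% of all probes. For KD4 they did not overlap on 2 of 9, against 44.9%, and between the knock-downs on 3 of 9, against 29.0%. In KD3 8 of the 9 probes lay below 0, with a median log2 fold change of -0.41. In KD4 4 of 9 lay below 0, with a median of 0.02. Over all tested probes these medians were 0.01 and 0.04. Without CTL replicate 1, 6 of the 9 lay below 0 in KD3, and beyond GRIK3 and GRIN2D the knock-down arrays overlapped those of CTL.

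Another 7 ionotropic subunits were set beside these genes, from a list that, like the lists that follow, was drawn up with earlier results of these data known. Of 6 tested, 0 were called in KD3 by limma (1 at an unadjusted p under 0.05, and 0 by the methods' t-test after adjustment) and 1, GRID1, was called lower in KD4. GRID1 encodes a delta receptor that binds glycine, D-serine and cerebellins and not glutamate. Its probe A_23_P32805 fell from 10.28 ± 0.25 (mean and SD, n = 3) in CTL to 9.35 ± 0.11 in KD4, a change of -0.93 ± 0.12 (limma adjusted p = 0.000998), and was at -0.53 ± 0.12 in KD3 (adjusted p = 0.0179, short of 1.8-fold). The KD4 call was lost without CTL replicate 2 (-0.81), with normexp (-0.84) and with the methods' t-test after adjustment, and the other tested GRID1 probe was at -0.18 ± 0.21. The uncalled subunits of this list, GRIA4, GRIN2A, GRIN2C, GRIN3A and GRIN3B, lay between -0.71 and 0.46 in KD4. Their lowest limma adjusted p in KD4 was 0.0224, for GRIN2C on A_23_P49546 at -0.30 ± 0.08, short of 1.8-fold. The other tested GRIN2C probe was at 0.46 ± 0.33.

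Auxiliary subunits bind the receptor channels and set their traffic and gating. Of 12 tested, 2 were called lower in KD3 and the same 2 in KD4, CACNG7 and SYNDIG1, where 2.43%, 3.53% and 1.83% of all genes were called lower in KD3, in KD4 and in both. SYNDIG1, a membrane protein that associates with AMPA receptors, went from 9.93 ± 0.03 in CTL to 8.57 ± 0.05 in KD3 and 8.72 ± 0.07 in KD4 (SD, n = 3), changes of -1.36 and -1.22 (limma adjusted p = 1.13e-05 and 1.44e-05). CACNG7, an AMPA receptor regulatory protein of the stargazin family, was at 5.93 ± 0.12 in CTL, 3.80 ± 0.37 in KD3 and 3.86 ± 0.27 in KD4 on A_24_P365349, which was well above background on all but 1 KD4 array, changes of -2.13 and -2.07 (limma adjusted p = 0.000213 and 0.000194). With normexp these values were -0.71 and -0.73 and both calls were lost, and the KD3 call was also lost with the methods' t-test after adjustment. As with GRIK3, its other probe did not follow, at 0.09 ± 0.12 and 0.22 ± 0.12 (limma adjusted p = 0.654 and 0.206). The 10 other tested members of the list lay between -0.56 and 0.22 in KD3 and between -0.76 and 0.34 in KD4, all short of 1.8-fold. Their lowest limma adjusted p was 0.0017 in KD3 and 0.000285 in KD4, so not all of them were unchanged.

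Among the synaptic scaffold proteins, 1 of 17 tested was called lower in KD3 and the same 1 in KD4, against the same 2.43% and 3.53% of all genes. DLGAP3, which links the PSD-95 and SHANK scaffolds, fell in both, to -1.11 ± 0.07 in KD3 and -0.92 ± 0.07 in KD4 relative to CTL (limma adjusted p = 3.4e-05 and 7.4e-05), and its KD4 call was lost with normexp (-0.74). The other 16 lay between -0.40 and 0.42 in KD3 and between -0.63 and 0.41 in KD4 and were not called. Their lowest limma adjusted p was 0.0046 in KD3 and 0.00452 in KD4, at changes short of 1.8-fold.

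Of the metabotropic receptors, which signal through G proteins and do not form channels, 4 of 8 were tested and 2 were called lower in both knock-downs, as were 1.83% of all genes. GRM4 went from 7.29 ± 0.17 to 5.98 ± 0.10 in KD3 and 5.80 ± 0.10 in KD4 (SD, n = 3), changes of -1.31 and -1.49 (limma adjusted p = 9.78e-05 and 4.07e-05). The GRM4 call in KD3 was lost with normexp (-0.82) and with the methods' t-test after adjustment. GRM8, of the same presynaptic group, fell on A_32_P8221, with log2 fold changes of -0.87 ± 0.09 and -0.997 ± 0.09 (limma adjusted p = 0.000441 and 0.00017), and its KD3 call was lost without KD3 replicate 2 (-0.83). With normexp GRM8 was at -0.69 and -0.79 and was called in neither, and its KD4 call was also lost with the methods' t-test after adjustment. Its other probe was too dim on all KD3 arrays and was not called in either knock-down.

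The ADAR family, which includes the enzymes that edit glutamate receptor transcripts, was the only list with higher calls, and all 3 of its genes were tested. ADAR was at 0.33 ± 0.07 in KD3 and 0.345 ± 0.07 in KD4 (limma adjusted p = 0.00901 and 0.00548), short of 1.8-fold. ADARB2, a brain-enriched ADAR family member without known editing activity, was up-regulated in KD3 by 1.11 ± 0.09 (limma adjusted p = 0.000109), where 1.24% of all genes were called higher, and was at 0.63 ± 0.09 in KD4 (adjusted p = 0.00146), short of 1.8-fold. With normexp the KD3 value was 0.60 and the call was lost. ADARB1, which edits the calcium-permeability site of GRIA2, was up-regulated in KD4 by 0.97 ± 0.09 on A_33_P3399061 (limma adjusted p = 0.000158), where 1.57% of all genes were called higher, and was at 0.61 ± 0.09 in KD3 (adjusted p = 0.00205). The ADARB1 call was lost with normexp (0.62) and with the methods' t-test after adjustment. The brighter ADARB1 probe was at 0.13 ± 0.07 in KD3 and 0.15 ± 0.07 in KD4 and was called in neither. Of 5 tested transporters and 11 tested enzymes of glutamate and co-agonist metabolism, 0 were called in either knock-down by limma or by the methods' t-test after adjustment, and their values lay between -0.77 and 0.69. Without the fold threshold, limma gave 1 transporter and 3 enzymes in KD3 and 1 and 2 in KD4 at an adjusted p under 0.05, and 1 and 4 in KD3 and 2 and 6 in KD4 at an unadjusted p under 0.05.

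**Figure D4:**
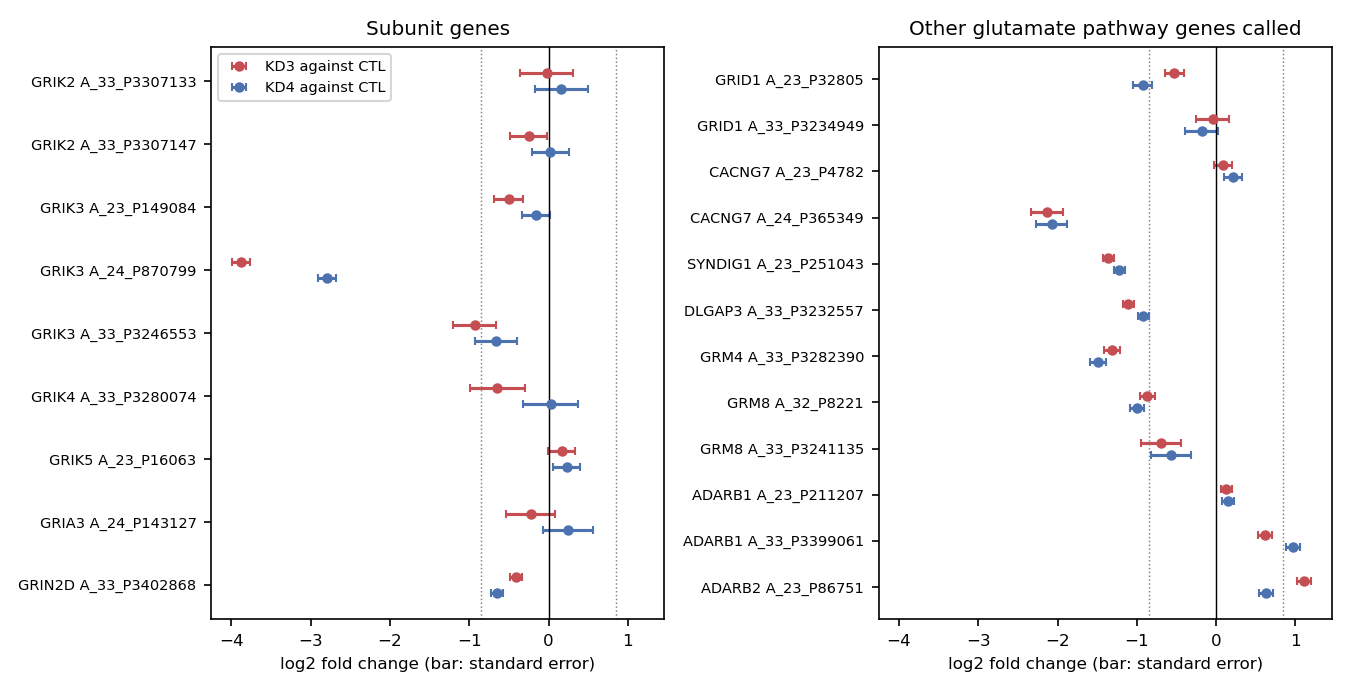
Log2 fold change against CTL (x axis, bar: standard error, n = 3 arrays a group) of the 9 tested subunit probes (left) and of every tested probe of the 8 other glutamate pathway genes called in KD3 or KD4 (right), with dotted lines at 1.8-fold. GRIK3 A_24_P870799 lies at -3.88 in KD3 and -2.79 in KD4, far from the other GRIK3 probes, and CACNG7 shows the same kind of gap between its probes.

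Over the 7 lists, 58 of 79 genes were tested, and 5 were called lower and 1 higher in KD3, 6 lower and 1 higher in KD4, and 5 lower in both. Of all genes, 2.43% and 1.24% were called lower and higher in KD3, 3.53% and 1.57% in KD4, and 1.83% lower in both. These shares count identifiers without a symbol, whereas every list gene and subunit has one. Of the 16082 named genes, 793 were called in KD3 and 1027 in KD4, in either direction, which is a larger share. With normexp, 2 list genes were called in KD3 and 2 in KD4. The median over these list genes was -0.06 (KD3) and -0.08 (KD4) on the log2 scale, while all genes tested gave 0.01 and 0.04. Of the 8 list genes called in either knock-down, 4 were measured by 2 tested probes, and for 0 of these 4 did both pass. Over all named genes called with more than 1 tested probe, every probe was called in 55 of 209 genes in KD3 and 78 of 297 in KD4, 26.3% in both.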

How the data were processed

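Total RNA of HEK293 lines carrying 2 SMCHD1 shRNAs or NC5 was labelled with Cy3 and hybridized to 9 Agilent one-colour arrays on 2 slides. The members and all gene lists were chosen with earlier results of these data known. The authors extracted spot intensity with Agilent Feature Extraction 10.10 (per the labels) and also deposited a table of log2 values, quantile normalized in GeneSpring per the methods, which was used as an alternative and lay a median of -0.07 from the values here. Here, control spots and outlier-flagged spots (260 to 634 of 58717 an array) were left out, log2 processed signals were quantile normalized over the 9 arrays, and spots were averaged per probe. Probes were named through RefSeq accessions (GRCh38.p14 gene table): 25422 of 42405 probes had a symbol, and 21 with missing values were dropped. A probe was tested when well above background on all 3 arrays of at least 1 group (32276 probes). limma 3.58.1 in R 4.3.3 (lmFit, eBayes, 1 mean per group over all arrays) was used with Benjamini-Hochberg adjustment over all probes; a call needed adjusted p under 0.05 and 1.8-fold, and a gene was called when any tested probe was. The methods state a t-test with the same thresholds, run as an alternative. The step was tested on simulated data. Named were all members, the 3 profiles most like a member called in both knock-downs, every list gene called, and SMCHD1; some genes of the lists are not reported here. The number of arrays limits the precision. Alternatives covered scaling, normexp (offset 50), the dim-probe filter, the fold threshold, 1 probe per gene, slide and replicate blocks, and leaving out each array; the mean over probes was added after seeing the data. Replicates of a group correlated at 0.9946 or more, and same-numbered arrays of different groups deviated together with correlations of -0.08 to 0.14.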

Additional observations from a re-analysis of the deposited data

Results flagged for a closer look

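On probe A_24_P870799 the GRIK3 signal differed between the 2 knock-down populations of HEK293. It was 1.086 log2 units higher in KD4 than in KD3, and the 3 arrays of KD4 did not overlap those of KD3. The direct comparison of KD4 with KD3 in the same limma fit called this difference. The call was not kept with normexp, with the methods' t-test after adjustment or with the mean over the probes. An effect of the shRNA and a difference between the selected populations cannot be told apart. On the other GRIK3 probes KD4 was above KD3 by 0.35 (A_23_P149084) and 0.27 (A_33_P3246553), and neither was called. The cause was not tested.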

How the results depend on the processing

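GRIK3 remained called lower in KD3 and KD4 on A_24_P870799 under every alternative that gave a test. Of 350 log2 fold changes of the subunits recomputed under an alternative, 329 stayed on their side of the threshold or within the replicate SD, 10 lost a call, 2 gained one, 9 moved by more than the replicate SD and 0 called values changed sign. The 329 do not measure stability. Several alternatives changed only the test and left the fold change as it was. Outside the within-slide values, a value not called counted as staying unless it gained a call. Of the values not called, 19 changed sign, on 5 probes of GRIK2, GRIK3 (A_23_P149084), GRIK4 and GRIA3, all with a difference of at most 0.25 in size. Without the fold threshold, 2 subunit genes were called in KD3 and 2 in KD4 (GRIK3 and GRIN2D), and the list genes called numbered 20 (KD3), 17 (KD4) and 4 (KD4 against KD3). Without the dim-probe filter, 2 subunit genes were called in KD4, since GRIK4 A_23_P116249, well above background on no array, gained a call at -1.03. Between KD4 and KD3, 0 subunit genes were called with normexp, with the methods' t-test after adjustment and with the mean over probes. Of the list genes, normexp called 2 in KD3 and 2 in KD4, and the adjusted t-test 4 in KD3 and 4 in KD4. The mean over probes called 5 in KD3 and 4 in KD4, while the authors' log2 table and slide as a block each called 1 between the knock-downs. Leaving out each array in turn gave 1 subunit gene in each comparison, and list genes numbering 5 to 6 (KD3), 6 to 8 (KD4) and 0 to 1 (KD4 against KD3; 1 without KD3 replicate 1, KD3 replicate 3 or KD4 replicate 2). SMCHD1 in KD3 was at -0.84 and -1.14 within the slides, each with a single array in 1 of the 2 groups compared. The replicate numbers did not pair the arrays; with the replicate number as a block, 1 subunit gene was called in each comparison, and 6, 7 and 0 list genes, the same counts as without the block. Other scalings moved the median of all probes by under 0.1. Signal over background limits the dim genes: for GRIK1, GRIA1, GRIA2 and GRIN1 no difference was detectable here.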
